A study of Mus musculus with 51 samples.

Results

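The comparison set fetal mouse kidneys collected at circadian time 16 (CT16, embryonic day 18 plus 16 h) against kidneys collected 12 h earlier at CT4 (embryonic day 18 plus 4 h), opposite points of a daily cycle. Its members were the 8 libraries whose columns carry these times, 4 at CT4 and 4 at CT16, of 51 libraries in the series. All groups were wild-type C57BL/6 mice without a transgene or a treatment. Poly-A RNA of whole kidneys was sequenced every 4 h at 13 time points, from CT0 (embryonic day 18) through CT24 (embryonic day 19) to CT48. The labels name no dam or litter, so p-values measure the spread between these libraries, which may be technical in part. Libraries of CT0 (day 18) and CT24 (day 19) served to measure the change over a full day of age. CT28 and CT40 (day 19 plus 4 h and plus 16 h) are the same circadian times a day later, in a second library series.

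A kidney at this age is still forming nephrons at its rim while the tubules laid down earlier mature. Cells keep circadian time by a loop in which CLOCK and BMAL1 (gene Arntl) drive the Per and Cry genes, whose products feed back on them, and output factors such as DBP and TEF carry the phase to other genes. In adult kidneys this loop turns over daily, and many transporter genes follow it. Independent of the clock, an excess of unfolded protein in the endoplasmic reticulum (ER) raises ER chaperone genes, and a shortage of sterol raises the genes of cholesterol synthesis.

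The libraries compared gave almost equal totals, 34247107 to 34794625 normalised units, because the deposited values are normalised and rounded. Sequencing depth is therefore unknown, and no counting interval can be given. Kidney markers were present in all 8 libraries: the podocyte gene Nphs1 had 2439 to 2774 units and the nephron progenitor gene Six2 2268 to 2542. Some libraries had raised values of marker genes of neighbouring tissue, whose source was not tested. CT16 replicate 1 had 262 units of the skeletal muscle gene Acta1 and 315 of Myh8, against 27 to 70 and 0 to 20 elsewhere. CT4 replicate 3 had 33 units of the adrenal cortex gene Cyp11b1 against 0 to 4 elsewhere. No gene of the skeletal muscle (9 tested), adrenal (6 tested) or liver (12 tested) list passed the test in limma, and 1, 0 and 1 of them had an unadjusted p under 0.05. Of all genes tested 4.53% passed and 18.3% had an unadjusted p under 0.05. A marker raised in 1 library of a group has a wide spread, so this test could hardly call it.

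Kidneys at CT16 differed from kidneys at CT4 by small amounts in a limited set of genes. On log2(value + 1), limma called 650 of 14336 genes at an adjusted p under 0.05 (4.53%), with 285 higher at CT16 (1.99% of genes tested) and 365 lower (2.55%). Among the 650 the median difference was 1.16-fold, 36 exceeded 1.5-fold and 6 exceeded 2-fold. Over all genes tested the median log2 difference was -0.00621. In 607 of the 650 (93.4%) the libraries of the groups did not overlap, which was so for 1818 of all genes tested (12.7%). Genes named for the largest rises and falls were picked from these 607, so their lack of overlap follows from the rule. The count depends on the spread used and on the libraries kept. Leaving out any 1 library, which leaves fewer to test, lowered the count to between 340 and 542. It was 402 without CT16 replicate 1, 425 without CT4 replicate 1, 340 without CT4 replicate 2 and 358 without CT4 replicate 3, and 28 when the more variable second library series was fitted together with the first. All 28 were among the 650. Both fits hold the same CT4 and CT16 libraries and give the same differences, so this is not a separate test.

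**Figure D1:**
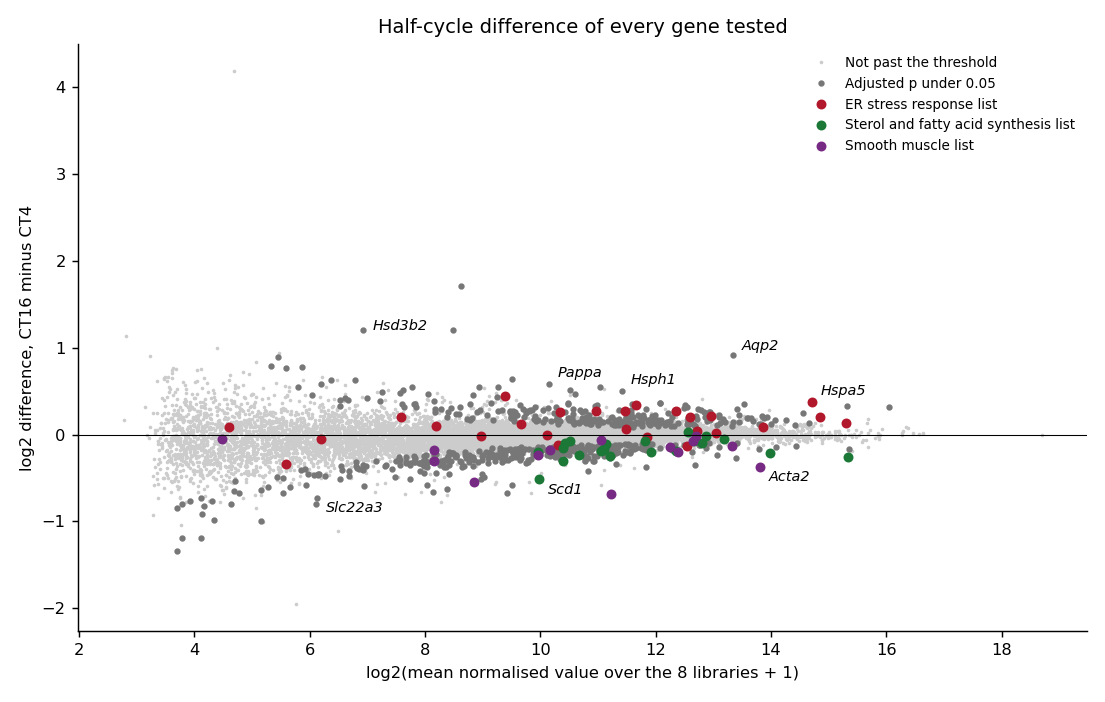
Log2 difference, CT16 minus CT4, against the mean normalised value for each of the 14336 genes tested. Dark grey points passed the threshold (650 genes), coloured points are named members of 3 gene lists whether or not they passed, and Hsd3b2 and Aqp2 stand above the cloud.

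Hsd3b2, a gene of the hydroxysteroid dehydrogenase family (chr3:98709255-98724543, minus strand, mm10), rose to a peak at CT16. Its libraries held 65, 68, 77 and 80 units at CT4 and 160, 185, 146 and 184 at CT16. The groups did not overlap, which the rule for the largest rises required. The log2 difference was 1.21 ± 0.121 (SE, n = 4 against 4, adjusted p = 1.5e-07 in limma). The mean rose from 95 at CT8 to 118.25 at CT12 and 168.75 at CT16, and was back at 105.333 at CT20 and 77 at CT24. Reads of Hsd3b2 and of its near-identical neighbours may have been divided by the counting, so its level is uncertain. The summed level of the adrenal list was 479 units in CT4 replicate 3, 230 to 243 in the other CT4 libraries and 223 to 326 at CT16. On day 19 the difference was 0.11 on the log2 scale, lower than on day 18 by 1.09 ± 0.32 (adjusted p = 0.0065 in limma). The authors' deposited table gives Hsd3b2 a rhythm with a period of 23.5 h and a phase of 14.8 h (q = 0.000337). Of all 14336 genes tested, 6593 (46%) have an authors' q under 0.05. That rhythm was scored over the whole time series, which includes these CT4 and CT16 libraries, so it is not a separate test.

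Aqp2, the vasopressin-regulated water channel of collecting duct principal cells (chr15:99579055-99584547, plus strand, mm10), rose together with Aqp3, the channel through which water leaves the same cells. Aqp2 had 7126, 7071, 6848 and 7493 units at CT4 and 11555, 15019, 13269 and 14194 at CT16, a log2 difference of 0.91 ± 0.077 (adjusted p = 7.94e-08 in limma). For Aqp3 the values were 2757, 2633, 2785 and 2573 at CT4 against 3162, 3629, 3401 and 3586 at CT16, a difference of 0.36 ± 0.042 (adjusted p = 4.48e-06 in limma). In both genes all CT16 libraries were above all CT4 libraries, which the rule for the largest rises required of Aqp2. In bulk tissue, a change in the number of cells of a type and a change in RNA per cell cannot be told apart. Of the 16 collecting duct genes tested, 3 rose and 1 fell (1.99% and 2.55% of all genes tested), and their median log2 difference was 0.0645. Krt18, a keratin of simple epithelia, was the member that fell (-0.16 ± 0.038, adjusted p = 0.0115 in limma), a call lost without CT4 replicate 4 (adjusted p = 0.0593). The third rising member, the water channel gene Aqp4, rose by 0.19 on the log2 scale and lost its call without CT16 replicate 1 or 2 or CT4 replicate 1, 2 or 3 (adjusted p up to 0.101).

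**Figure D2:**
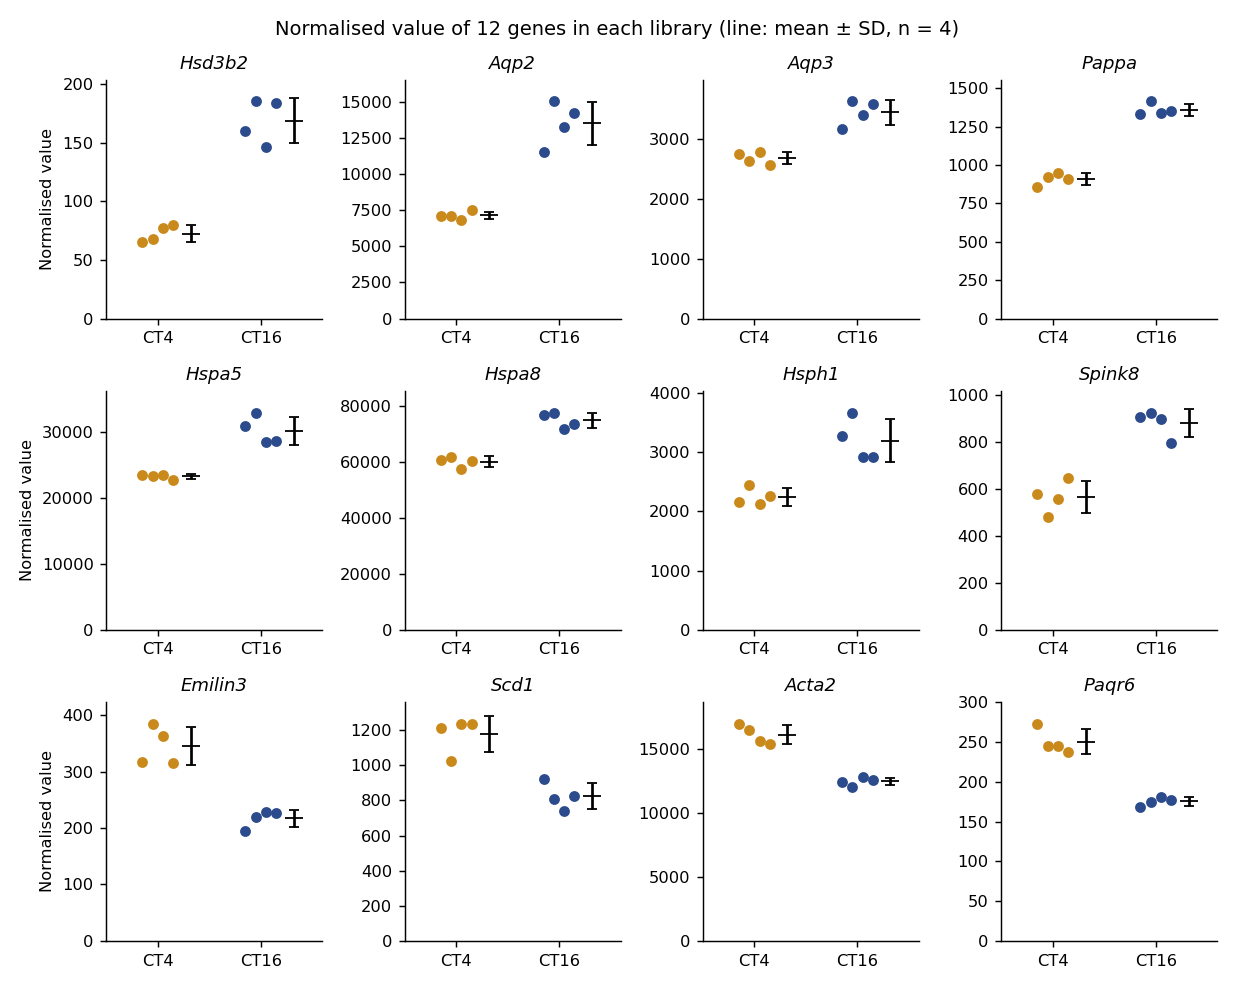
Normalised value of 12 genes in each of the 4 CT4 libraries (ochre) and 4 CT16 libraries (blue), with the mean ± SD of each group. Each axis starts at 0. In none of the 12 genes do the groups overlap, which was required of those named for the largest rises and falls.

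The other genes named among the largest rises rose by 0.51 to 1.21 on the log2 scale. Pappa, whose metalloproteinase releases insulin-like growth factors from their binding proteins, had 855, 921, 947 and 911 units at CT4 and 1329, 1413, 1339 and 1353 at CT16 (0.58 ± 0.055, adjusted p = 7.14e-08 in limma). Spink8, which encodes a serine peptidase inhibitor of the Kazal type, had 581, 479, 558 and 648 units against 906, 926, 900 and 795 (0.64 ± 0.081, adjusted p = 2.14e-05 in limma). Both genes were higher in all 4 CT16 libraries than in any CT4 library, which the rule that named them required. Slc9a7, a sodium-proton exchanger of intracellular membranes, was at 53 to 62 units at CT4 and 75 to 96 at CT16. The interferon-induced gene Ifi27l2a, which has a close copy beside it, rose by 1.21 on the log2 scale but spread widely, over 318 to 651 units at CT16, with CT4 replicate 2 far below the other CT4 libraries. Its call was lost without CT16 replicate 2, 3 or 4 or CT4 replicate 2 or 4 (adjusted p up to 0.161).

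The largest falls were smaller than the largest rises. Among the genes named for the largest falls, the log2 difference ran from -0.73 (Slc22a3) to -0.48. Slc22a3, an organic cation transporter, had 90, 80, 89 and 86 units at CT4 and 50, 46, 57 and 54 at CT16 (-0.73 ± 0.151, adjusted p = 0.00495 in limma). On day 19 it moved the opposite way, from 27 to 60 units at CT28 to 63 to 168 at CT40, and the days differed by 2.04 ± 0.40 (adjusted p = 7.94e-05 in limma). Emilin3, an extracellular matrix glycoprotein gene, had 318, 385, 363 and 316 units against 195, 219, 228 and 227 (-0.66 ± 0.111, adjusted p = 0.000647 in limma). Sprr2f, a gene of the cornified envelope family with close copies beside it, went from 353 to 441 units to 227 to 314. Paqr6, a gene of the progestin and adipoQ receptor family, had 273, 245, 245 and 238 units against 168, 175, 181 and 177 (-0.51 ± 0.078, adjusted p = 0.000205 in limma). In each of these 4 genes the groups did not overlap, which the rule that named them required.

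ER chaperone genes were higher at CT16. Of the 26 tested genes of the unfolded protein and integrated stress response list, 10 rose and 1 fell (of all genes tested 1.99% rose and 2.55% fell), with a median log2 difference of 0.113 against -0.00621 over all genes. The summed level of the list was 160992 to 163815 units at CT4 and 174474 to 192775 at CT16. Those that rose encode ER chaperones, co-chaperones and folding enzymes (Hspa5, Sdf2l1, Pdia4, Hyou1, Calr, Dnajb9), ER proteins made under ER stress (Manf, Creld2), a membrane protein of the removal of misfolded proteins (Herpud1) and the transcription factor of this response (Xbp1). Depending on which of the 8 libraries was left out, 8 to 11 rose. With all 51 libraries in the fit 3 did, Hspa5, Creld2 and Xbp1.

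Promoters of the ER genes past the threshold are shown for the members that hold an ER stress element, the site through which ATF6 and XBP1 are known to act. The sequences are from RefSeq (GRCm38.p6, the build mm10), give the 180 bases before the annotated start from 5′ to 3′ in the direction of the gene, and carry the element in capitals:
Hspa5, chr2:34771910-34772089, plus strand: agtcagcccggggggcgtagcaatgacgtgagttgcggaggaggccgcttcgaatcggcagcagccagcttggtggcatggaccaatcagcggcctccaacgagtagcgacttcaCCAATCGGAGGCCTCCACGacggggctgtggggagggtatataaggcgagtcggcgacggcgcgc
Creld2, chr15:88819466-88819645, plus strand: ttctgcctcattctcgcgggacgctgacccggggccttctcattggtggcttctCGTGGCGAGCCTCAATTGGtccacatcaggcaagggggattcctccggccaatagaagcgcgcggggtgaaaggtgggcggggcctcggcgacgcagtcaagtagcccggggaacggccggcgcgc
Calr, chr8:84846932-84847111, minus strand: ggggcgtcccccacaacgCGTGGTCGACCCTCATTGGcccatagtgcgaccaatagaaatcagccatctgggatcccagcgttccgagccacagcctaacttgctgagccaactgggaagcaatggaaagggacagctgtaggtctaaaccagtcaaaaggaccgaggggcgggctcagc
Herpud1, chr8:94386249-94386428, plus strand: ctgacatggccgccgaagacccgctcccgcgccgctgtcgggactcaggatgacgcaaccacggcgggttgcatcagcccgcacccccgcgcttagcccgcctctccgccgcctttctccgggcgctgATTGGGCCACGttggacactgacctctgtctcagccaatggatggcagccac
Capitals in Hspa5 mark the ER stress element, CCAAT and CCACG separated by 9 bases of any kind, and in Creld2 and Calr the same element on the opposite strand. In Herpud1 they mark ER stress element II, ATTGG and CCACG separated by 1 base. Both strands of the 300 bases from 250 before to 50 after each start were searched. Manf and Hyou1 had no promoter sequence to search, which left 9 list members past the threshold. Of the 26 genes of the list 23 had a promoter in the table, and 5 held the former element (21.7%), against 37 of 27025 genes in the table (0.137%). Herpud1 was the single list member with the latter, which 12 genes of the table hold (0.0444%). Matching letters are a description and not evidence of a bound factor. The list was chosen as genes of this response, so its share of matches does not bear on CT16 against CT4. Pdia6 and Hsp90b1, which also hold the element, did not pass the test of CT16 against CT4 in limma (0.09 and 0.14, adjusted p = 0.261 and 0.0817). Other elements were searched as well. A heat shock element was found in 4 of 19 heat shock genes (21.1%, against 0.662% of the table). A sterol regulatory element, searched as a single fixed sequence, was found in 0 of 17 sterol and fatty acid genes (against 0.0999% of the table). Other forms of this element were not searched, and Scd1 and Fdps were among the list members without a promoter sequence to search. The result therefore does not show that sterol and fatty acid genes lack the element. The E-box CACGTG was found in 4 of 16 core clock genes (25%, against 8.09%).

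Hspa5, the main ER chaperone (BiP), had 23400, 23331, 23405 and 22716 units at CT4 and 30787, 32892, 28400 and 28557 at CT16. The CT4 libraries lay close together and all CT16 libraries were above them, by 0.38 ± 0.058 on the log2 scale (adjusted p = 0.000327 in limma). Sdf2l1, which works with ER co-chaperones, had 573, 581, 566 and 553 units against 839, 834, 690 and 734 (0.44 ± 0.077, adjusted p = 0.00102 in limma). Manf, a secreted ER stress protein, had 2988, 2861, 2825 and 2801 units against 3607, 3900, 3447 and 3537 (0.34 ± 0.057, adjusted p = 0.000901 in limma). None of these 3 genes had overlapping groups. Herpud1 had 2482, 2519, 2658 and 2628 units against 2820, 3036, 3198 and 3385 (0.27 ± 0.052, adjusted p = 0.0023 in limma). Creld2 rose by 0.27 on the log2 scale (adjusted p = 0.00187 in limma) and Calr by 0.20 (adjusted p = 0.0115 in limma).

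Atf4, the gene of a transcription factor of the integrated stress response, was the list member that fell, from 6177, 6382, 6212 and 6302 units to 5693, 5711, 5444 and 5978 (-0.14 ± 0.034, adjusted p = 0.0182 in limma). This call was lost without CT16 replicate 3 or CT4 replicate 2. The other 15 members did not pass in limma, 9 with positive and 6 with negative differences. These ran from -0.33 (Trib3, adjusted p = 0.315) to 0.20 (Nupr1, adjusted p = 0.356).

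Cytosolic chaperone genes moved in the same direction. Of 24 heat shock genes tested, 7 rose and 1 fell (1.99% and 2.55% of all genes tested did), with a median log2 difference of 0.119. The number that rose was 4 without CT16 replicate 1, 4 without CT4 replicate 1, and 5 to 7 without any other library. Hspa8, the constitutive heat shock cognate, had 60650, 61889, 57537 and 60511 units at CT4 and 76660, 77651, 71818 and 73459 at CT16 (0.32 ± 0.047, adjusted p = 0.000193 in limma). Hsph1, which encodes a nucleotide exchange factor for such chaperones, had 2150, 2444, 2119 and 2267 units against 3275, 3668, 2924 and 2916 (0.50 ± 0.086, adjusted p = 0.00147 in limma). All CT16 libraries were above all CT4 libraries in both. Hspa1b, whose reads may have been divided with its near-identical copy Hspa1a, rose by 0.34 (adjusted p = 0.00277 in limma). The small heat shock gene Hspb8 was the one that fell, from 347, 397, 373 and 369 units to 277, 249, 313 and 313 (-0.37 ± 0.079, adjusted p = 0.00637 in limma).

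Sterol and fatty acid synthesis genes were lower at CT16. Of 24 tested, 9 fell and none rose (2.55% of all genes tested fell), 23 of the 24 differences were negative, and the median was -0.161. The summed level was 133468 to 146921 units at CT4 and 117274 to 132685 at CT16. Scd1, the desaturase that makes oleate from stearate, had 1210, 1024, 1236 and 1237 units at CT4 and 921, 811, 742 and 825 at CT16 (-0.51 ± 0.081, adjusted p = 0.000509 in limma). Lss, the lanosterol synthase gene, had 1448, 1365, 1517 and 1622 units against 1172, 1259, 1208 and 1185 (-0.30 ± 0.055, adjusted p = 0.00155 in limma). In both the groups did not overlap, with CT4 replicate 2 the lowest CT4 library. For Scd1 the rule for the largest falls required this lack of overlap.

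Further members of the cholesterol pathway that fell were Fdps (-0.25, adjusted p = 0.0133 in limma) and Dhcr7 (-0.23, adjusted p = 0.0201 in limma), which act at its middle and last steps. Without CT4 replicate 3 or 4 neither passed, nor did Dhcr7 without CT16 replicate 1 or 3 (adjusted p up to 0.0558 and 0.0809). Fasn, the fatty acid synthase gene, did not pass (-0.015, adjusted p = 0.946 in limma). The number of members called was 9 without CT4 replicate 2, but 5 without CT16 replicate 3, 5 without CT4 replicate 3 and 4 without CT4 replicate 4. With all 51 libraries it was 1, Scd1.

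**Figure D3:**
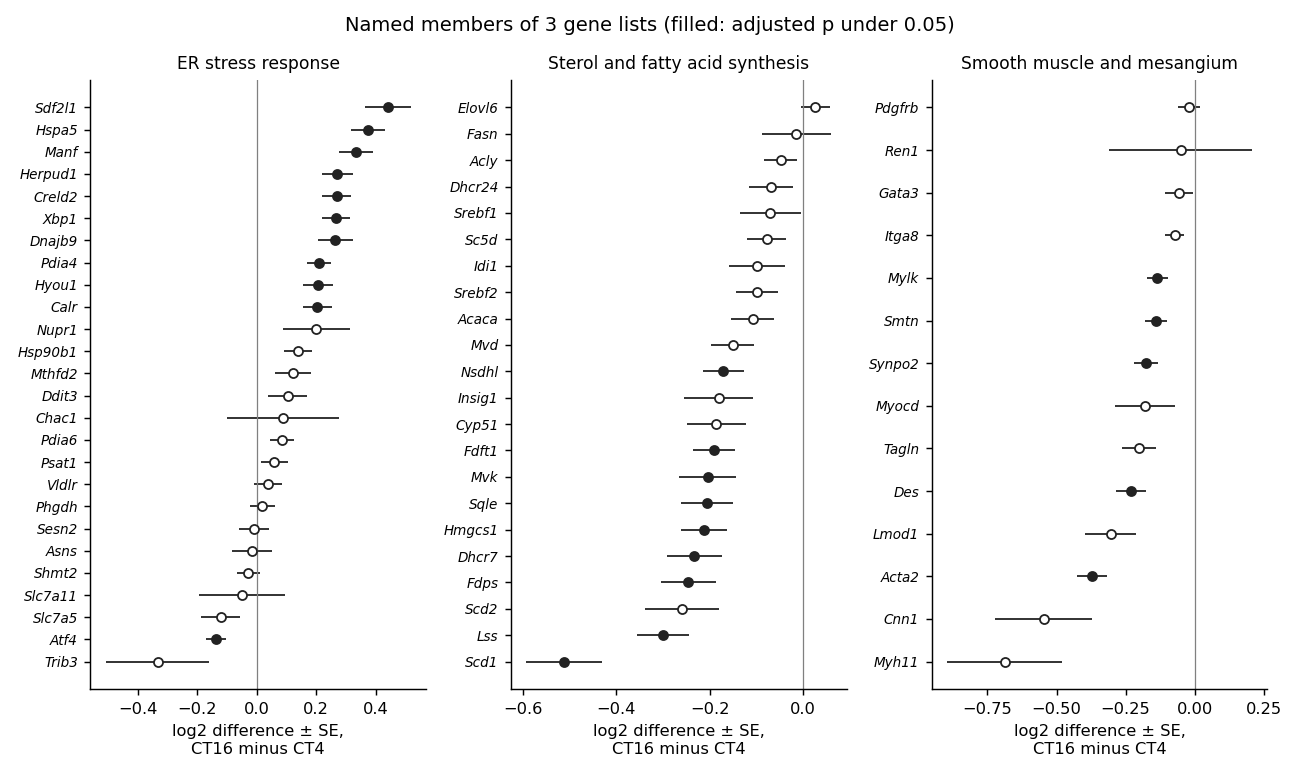
Log2 difference ± SE, CT16 minus CT4, for the named members of 3 gene lists, filled where the adjusted p was under 0.05. ER genes lead the left panel, 21 of the 22 sterol and fatty acid genes drawn and all 14 smooth muscle genes lie below 0.

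Contractile genes were lower at CT16 as well. All 14 smooth muscle and mesangium genes tested had negative differences (median -0.179), and 5 passed the test (2.55% of all genes tested fell). Their summed level was 57972 to 61088 units at CT4 and 50373 to 52408 at CT16. Acta2, the smooth muscle actin gene, had 17005, 16490, 15686 and 15419 units at CT4 and 12472, 12073, 12816 and 12570 at CT16 (-0.37 ± 0.055, adjusted p = 0.000205 in limma). The lowest CT4 library was well above the highest CT16 library. Des, the desmin gene, fell by 0.23 on the log2 scale (adjusted p = 0.0132 in limma), a call lost without CT4 replicate 2. Myh11, the smooth muscle myosin gene, differed more (-0.69 ± 0.208) but did not pass (adjusted p = 0.0651 in limma). The number called was 1 without CT4 replicate 2, 2 without CT4 replicate 1, 3 without CT16 replicate 2 or CT4 replicate 3, and 4 or 5 without the others. It was 0 with all 51 libraries. Skeletal muscle markers had a summed level of 1447 units in CT16 replicate 1 against 484 to 611 in the other 7 libraries. Their part in the result was not tested.

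Genes of the loop of Henle and distal tubule were higher at CT16, with 7 of 19 called higher and none lower (1.99% and 2.55% of all genes tested, median 0.121). Kl, the gene of the phosphate-regulating co-receptor klotho, had 10260, 10300, 10118 and 11129 units at CT4 and 13032, 14193, 12525 and 13734 at CT16 (0.35 ± 0.054, adjusted p = 0.000269 in limma). Kcnj1, the potassium channel ROMK, had 3305, 3124, 3247 and 3408 units against 4321, 4070, 3700 and 3940 (0.29 ± 0.050, adjusted p = 0.000798 in limma). The thiazide-sensitive cotransporter gene Slc12a3 had 4006, 3505, 3845 and 3754 units against 4696, 4716, 5209 and 4831 (0.36 ± 0.082, adjusted p = 0.0124 in limma). No CT4 library reached a CT16 library in these 3 genes. Umod, the uromodulin gene, rose by 0.31 (adjusted p = 0.0437 in limma), a call lost without any 1 of the 8 libraries other than CT4 replicate 4 (adjusted p up to 0.155). The number of list members that rose was 3 without CT4 replicate 2, 4 without CT16 replicate 2 or 4 or CT4 replicate 1, and 5 to 7 without the others.

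Proximal tubule genes included 4 that rose and none that fell of 27 tested (median 0.12), where 1.99% of all genes rose and 2.55% fell. The same shares apply to the other segments. Lrp2, which encodes the endocytic receptor megalin, had 37286, 33684, 35586 and 38793 units at CT4 and 46186, 50010, 40622 and 46750 at CT16 (0.33 ± 0.068, adjusted p = 0.00531 in limma). The other called members, Slc3a1 (0.23), Fbp1 (0.20) and the regulator Hnf4a (0.14), each lost the call without CT4 replicate 2, which had the lowest list sum of the CT4 libraries (212380 units against 224116 to 238148). Without that library 1 member was called, and without CT4 replicate 3, 2 were. In podocytes the basement membrane collagen genes Col4a3 (0.28 ± 0.058, adjusted p = 0.00464 in limma) and Col4a4 (0.24 ± 0.048, adjusted p = 0.00289 in limma) rose together with Clic5 (0.17 ± 0.038, adjusted p = 0.00822 in limma). These 3 of 19 podocyte genes were called whichever of the 8 libraries was left out. Among genes of forming nephrons, limma called 0 of 15 nephron progenitor genes (3 had an unadjusted p under 0.05, as 18.3% of all genes tested did), 1 of 19 early nephron genes and 1 of 12 ureteric tip genes. The ureteric tip gene was Wnt9b, an inducer of nephron formation, at 1228, 1238, 1219 and 1316 units at CT4 and 1490, 1519, 1513 and 1446 at CT16 (0.26 ± 0.060, adjusted p = 0.0116 in limma).

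No core clock gene passed the threshold between these opposite phases in the fit of the first library series. Of 20 tested, limma called 0, 7 had an unadjusted p under 0.05 (18.3% of all genes tested had), and the median log2 difference was -0.0257. Per1, a repressor of the loop, had 1934, 2018, 2349 and 2096 units at CT4 and 1414, 1601, 1814 and 1986 at CT16, with overlapping groups (-0.31 ± 0.0996, adjusted p = 0.0817 in limma). Arntl, the gene of the activator BMAL1, had 599, 614, 689 and 713 units against 661, 611, 728 and 703, and the groups overlapped throughout (0.05 ± 0.061, adjusted p = 0.74 in limma). Nr1d1, the gene of the repressor REV-ERB alpha, had 416, 423, 454 and 451 units against 374, 372, 419 and 391 (-0.16 ± 0.056, adjusted p = 0.0887 in limma). Per1 passed without CT16 replicate 4 (adjusted p = 0.0338 in limma) and Nr1d1 without CT16 replicate 3 (adjusted p = 0.0493 in limma). Per1 also passed with the replicate number as a block in the fit (adjusted p = 0.0114 in limma). Further core clock genes passed with that block when only the CT4 and CT16 libraries were fitted. Log2 differences of the 20 genes ran from -0.437 to 0.295, and an adjusted p above the threshold does not show that they were flat.

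Of 13 clock output genes, 3 fell (2.55% of all genes tested did): Dbp, Nfil3 and Tef, all transcription factors that bind the D-box. Dbp had 422, 399, 355 and 422 units at CT4 and 343, 342, 334 and 333 at CT16 (-0.24 ± 0.058, adjusted p = 0.015 in limma), and the groups did not overlap. Nfil3 fell by 0.23 (adjusted p = 0.0343 in limma) and Tef by 0.16 (adjusted p = 0.0358 in limma). These calls were not kept in every fit without 1 library, and such a fit has fewer libraries to test. With 1 library left out the differences ran from -0.293 to -0.210 (Dbp), -0.273 to -0.147 (Nfil3) and -0.194 to -0.138 (Tef). Dbp lost its call without CT4 replicate 1 or 4 (adjusted p up to 0.0626), Nfil3 without CT16 replicate 1 or 3 or any 1 CT4 library (up to 0.188), and Tef without any 1 library other than CT16 replicate 3 (up to 0.12).

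A difference over 12 h can come from the phase of a cycle or from 12 h of growth, and the pair of time points alone cannot tell these apart. A further contrast therefore took 0.5 of the change from CT0 to CT24, which are 24 h apart at the same circadian time, off the change from CT4 to CT16. A straight change with age gives 0 in it, and a change that is not straight need not. Limma called 808 of 14336 genes (5.64%) in this contrast, 303 higher (2.11%) and 505 lower (3.52%). The count was 388 without CT16 replicate 1, 481 without CT16 replicate 2, 529 without CT4 replicate 1, 410 without CT4 replicate 3, 415 without CT4 replicate 4, and 27 with all 51 libraries. The contrast contains the CT16 and CT4 libraries, so its values are set beside the simple difference and are not a separate test of it.

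ER and cytosolic chaperone genes had larger values in this contrast than in the simple difference. Of the ER stress list 12 of 26 genes were higher and 1 lower (median 0.179), and of the heat shock list 9 of 24 were higher and 1 lower (median 0.14), against 2.11% and 3.52% of all genes tested. Hspa5 had 0.50 ± 0.065 (adjusted p = 5.14e-05 in limma) beside 0.38, Sdf2l1 0.66 ± 0.087 (adjusted p = 5.14e-05 in limma) beside 0.44, and Hsph1 0.65 ± 0.096 (adjusted p = 0.000402 in limma) beside 0.50. All 3 were lower at CT24 than at CT0 (adjusted p up to 0.0155 in limma), Hspa5 by a log2 difference of -0.25. Their means were low at CT4 and at CT20 and higher between these times. Hspa5 was at 28429.8 units at CT0, 23213 at CT4, 27327.5 at CT8, 29786.5 at CT12, 30159 at CT16, 19938.3 at CT20 and 23966 at CT24.

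**Figure D4:**
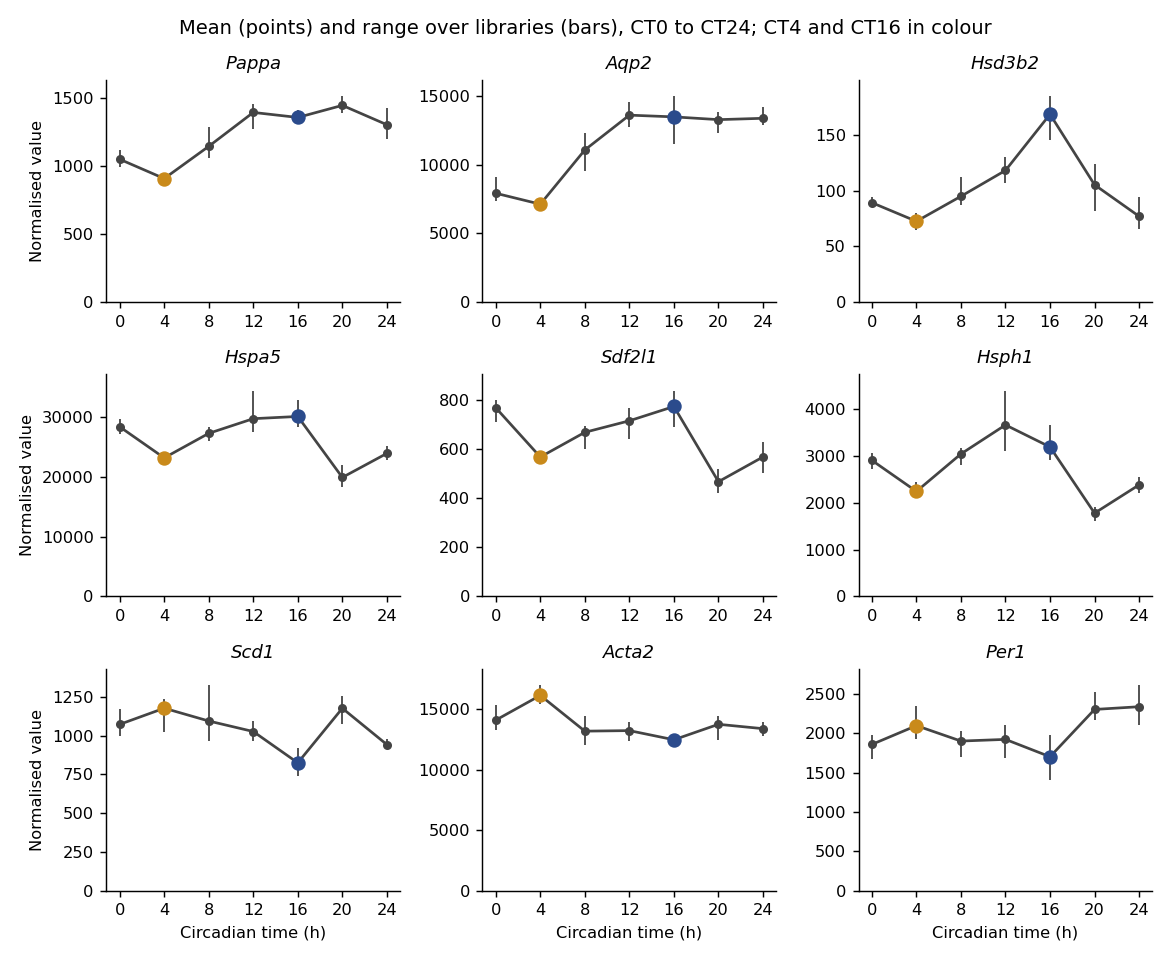
Mean normalised value (points) and range over libraries (bars) from CT0 to CT24 for 9 genes, 4 libraries per time point and 3 at CT20, with CT4 in ochre and CT16 in blue. Hsd3b2 peaks at CT16, and Hspa5, Sdf2l1 and Hsph1 are low at CT4 and again at CT20.

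Hsd3b2 (1.32 ± 0.136, adjusted p = 1.27e-06 in limma) led the higher genes named in this contrast, and Aqp2 had a smaller value than in the simple difference (0.53 ± 0.086, adjusted p = 0.000838 in limma). Acta2 (-0.33 ± 0.062, adjusted p = 0.00196 in limma) and Scd1 (-0.42 ± 0.090, adjusted p = 0.00731 in limma) stayed lower. Of tubule genes, 1 of 19 in the loop and distal list and 2 of 27 in the proximal list were called, all lower (3.52% of all genes tested were). Kl had 0.16 ± 0.061 (adjusted p = 0.107 in limma), and Umod had -0.18 ± 0.097 (adjusted p = 0.286 in limma) beside a rise of 0.97 from CT0 to CT24. In the sterol and fatty acid list 1 of 24 genes was lower in the contrast (3.52% of all genes tested were), and 12 of 24 were lower at CT24 than at CT0 (12.3% of all genes tested were).

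The lowest named value in the contrast was that of Cyp24a1, the enzyme that inactivates vitamin D hormone. It had 2618, 1716, 2679 and 3210 units at CT4 and 1792, 1216, 1669 and 2128 at CT16, with overlapping groups (-0.58 ± 0.220, adjusted p = 0.152 in limma), while its mean was 1334.75 at CT0 and 2959.5 at CT24. With 0.5 of the change from CT0 to CT24 taken off, its log2 difference was -1.13 ± 0.246 (adjusted p = 0.0107 in limma). Part of this value is the rise from CT0 to CT24 that was taken off. Per1 was the single core clock gene of 20 called in this contrast (-0.47 ± 0.111, adjusted p = 0.0155 in limma), and it was not called without CT16 replicate 1 or CT4 replicate 3. Of all genes tested 3.52% were called lower, so 1 of 20 is near the share of all genes. Clock output genes called lower were 4 of 13 (against the same 3.52%), Dbp (-0.32), Nfil3 (-0.25), Tef (-0.26) and Usp2 (-0.29). Without CT16 replicate 1, without CT4 replicate 3 or without CT4 replicate 4, 2 clock output genes were called.

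DNA replication genes showed the opposite arrangement. Limma called 0 of 25 between CT16 and CT4 (1 had an unadjusted p under 0.05, against 18.3% of all genes tested), 24 of 25 lower at CT24 than at CT0 (12.3% of all genes tested were lower), and 12 of 25 higher in the contrast (2.11% of all genes, median 0.179). Part of the values in the contrast is the fall from CT0 to CT24 that was taken off (median -0.311). Of 25 mitosis genes, all 25 were lower at CT24 than at CT0 (median -0.297), and 4 were higher in the contrast. Mcm6, a subunit of the replicative helicase, had 6739, 6763, 6675 and 6475 units at CT4 and 7549, 7276, 7021 and 6708 at CT16, with overlapping groups (0.10 ± 0.039, adjusted p = 0.16 in limma). Its value in the contrast was 0.21 ± 0.044 (adjusted p = 0.00511 in limma). For Tyms, the thymidylate synthase gene, the values were 0.10 (adjusted p = 0.332) and 0.27 (adjusted p = 0.00779) in limma. The 12 calls became 6 without CT16 replicate 1 or 2 or CT4 replicate 4 and 7 without CT4 replicate 3, and 0 with all 51 libraries.

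Comparisons that share no library with CT4 and CT16 showed how the same genes moved elsewhere in the series. Of the 285 genes higher at CT16, 157 (55.1%) were also higher at CT24 than at CT0, where 14.4% of all genes tested were. These were 7.58% of the 2071 genes higher there. Between CT0 and CT12, 151 of the 285 (53%) rose and 121 of the 365 (33.2%) fell, where 8.65% and 10% of all genes did. They made up 12.2% and 8.44% of the genes called there in each direction. Of the 365 lower genes, 57 (15.6%) were lower at CT24 than at CT0, against 12.3% of all genes tested, and 51 were higher. Between CT8 and CT20, the same span shifted by 4 h, 45 of the 285 (15.8%) were higher and 42 lower, where 8.56% and 5.16% of all genes were. There 4 of the 365 lower genes (1.1%) were lower and 65 higher. These shares are descriptions of genes chosen for their difference on day 18. All these comparisons came from the same fit of 27 libraries as CT16 against CT4 and share its estimate of each gene's spread. A gene with a small spread is therefore more easily called in each of them, in either direction, so they are not independent tests.

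The same circadian times were sampled on day 19, in the second library series. There limma called 5969 of 14426 genes (41.4%), 2717 higher at CT40 (18.8%) and 3252 lower (22.5%). Of the 285 genes higher on day 18, 99 (34.7%) were higher and 53 lower at CT40, and of the 365 lower genes 97 (26.6%) were lower and 62 higher. The former are 3.64% of the genes higher there and the latter 2.98% of those lower. The fit of all 51 libraries includes CT4 and CT16, so it too shares its estimate of spread with day 18. The difference between the 12 h changes of the days was itself called in 5128 genes (35.5%), 2385 higher on day 19 (16.5%) and 2743 lower (19%). The day and the library series cannot be told apart here, and this test called more false genes in simulated data than its threshold allows.

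Clock genes differed between the days. Of 20 core clock genes, 13 had a 12 h difference that was higher on day 19 and none a lower one, against 16.5% and 19% of all genes tested. Per1 rose on day 19 from 1056 to 1420 units at CT28 to 3031 to 3487 at CT40 (1.40), which differed from its day 18 value by 1.71 ± 0.29 (adjusted p = 2.29e-05 in limma). Arntl rose from 347 to 527 units to 639 to 934 (0.75), a difference of 0.70 ± 0.14 from day 18 (adjusted p = 9.17e-05 in limma). Per1 and Arntl, whose products act against each other in the loop, were both higher at CT40. Cirbp, a cold-induced RNA-binding protein gene, had 2796 to 3500 units at CT4 and 1927 to 3207 at CT16, and 1258 to 1862 at CT28 and 4983 to 5266 at CT40.

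Hspa5 and Sdf2l1 changed sign between the days. Hspa5 was at 28633 to 33931 units at CT28 and at 18459 to 19996 at CT40, a fall where day 18 had a rise, and the days differed by -1.12 ± 0.11 (adjusted p = 1.3e-09 in limma). Sdf2l1 went from a mean of 1185.5 units to one of 355, a difference between days of -2.18 ± 0.19 (adjusted p = 9.31e-11 in limma). Hspa8 and Hsph1 differed by -0.81 ± 0.09 and -1.37 ± 0.18 (adjusted p = 3.42e-09 and 2.02e-07 in limma). Of the 26 ER stress genes, 13 were lower and 7 higher in the difference between days (19% and 16.5% of all genes tested). Herpud1 was an exception that rose on both days, by 0.27 and 0.69.

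**Figure D5:**
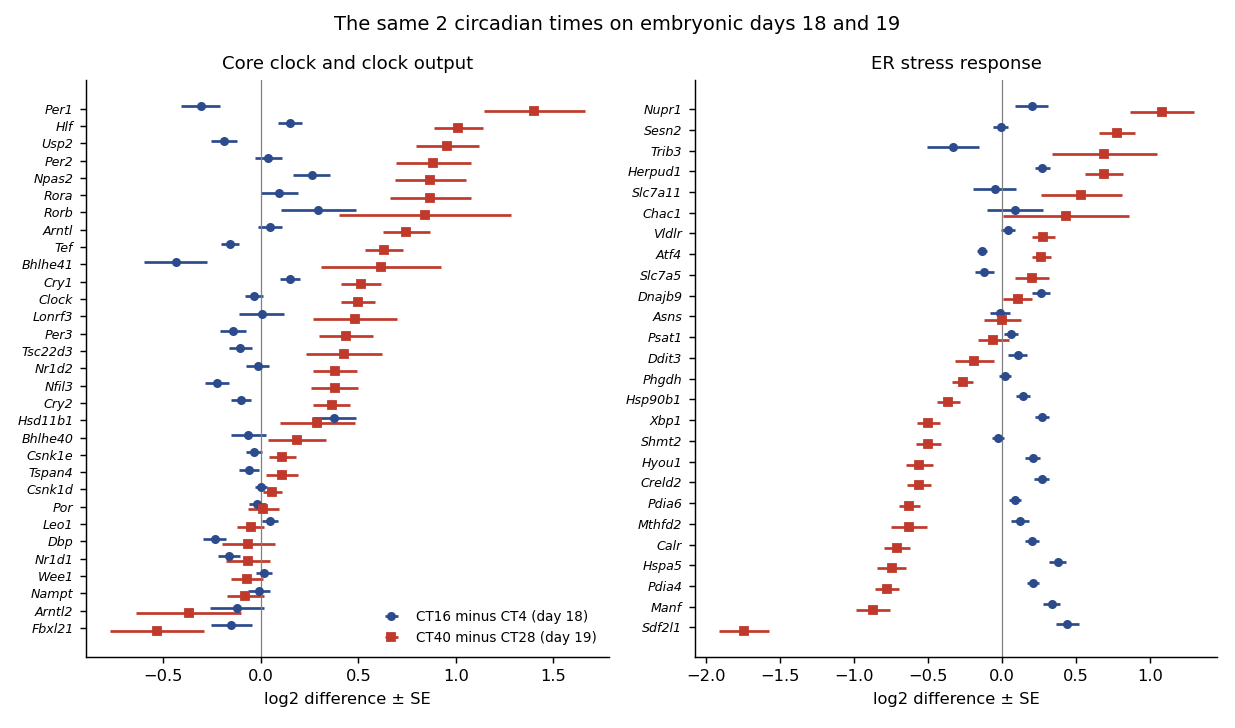
Log2 difference ± SE between the same circadian times on embryonic day 18 (CT16 minus CT4, blue circles, first library series) and day 19 (CT40 minus CT28, red squares, fit of both series). Per1 lies at -0.31 on day 18 and at 1.40 on day 19, and Sdf2l1, Manf and Hspa5 lie above 0 on day 18 and below 0 on day 19.

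Other genes moved the same way on both days. Aqp2 was at 7035 to 7445 units at CT28 and 10707 to 16806 at CT40, and the days differed by -0.06 ± 0.18 (adjusted p = 0.847 in limma). Acta2 went from 14887 to 19545 units to 11159 to 12537 (difference between days -0.11 ± 0.16, adjusted p = 0.636 in limma). Paqr6 fell on both days, by 0.51 and 0.65, and Pappa rose by 0.58 and 0.62. For these genes a p above the threshold does not show that the days were equal.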

How the data were processed

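Poly-A RNA of mouse fetal kidneys was sequenced in 51 libraries. The submitters' processing notes name mm10 and, without their order, featureCounts 1.5.0-p3, STAR 2.5.2b and bcl2fastq. The deposited gene table holds a score per gene and library: whole numbers with nearly equal totals (34226024 to 35711911) and upper quartiles, so they were treated as normalised and rounded by the authors. No source used here gives the normalisation. In addition, the authors' rhythm table holds q-values as deposited, with period and phase scores in hours.

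Genes whose mean over the fitted libraries reached 10 were tested on log2(value + 1) with limma 3.58.1 (R 4.3.3), its trend and robust options on, and p-values were adjusted by Benjamini-Hochberg over all of them. The first library series (27 libraries, CT0 to CT24) was fitted for CT16 against CT4, and all 51 with series weights for the comparison of days. Fold changes understate low genes. Fits were tested on simulated data. SE is the standard error, SD the standard deviation. Gene positions are from GENCODE M21.

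The members and the 37 gene lists were chosen with earlier results of these data known. Named genes were all clock and clock output genes, the 15 largest rises and falls past the threshold (groups not overlapping, mean of at least 50), the 8 largest of each sign in the other contrasts and up to 4 per list. Creld2, Calr, Xbp1, Pdia4, Hyou1, Dnajb9, Atf4, Pdia6, Hsp90b1, Trib3, Nupr1, Fasn, Myh11, Tyms, Cirbp, Nphs1, Six2 and the markers of other tissues were named after their values were seen. Some items the rule would name are not reported here. Alternatives varied the libraries, pseudocount, filter, scaling, moderation, replicate block and each replicate left out.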

Additional observations from a re-analysis of the deposited data

Results flagged for a closer look

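Of 150 groups of 4 libraries, in 75 named genes past the threshold, 7 had 1 library far from its neighbours (a gap past Dixon's critical value for 4 values). Chance flags about 1 group in 20. At CT4 these were the highest library of Chrnb4 (236 units, replicate 2, next 199) and Tfrc (5708, replicate 1, next 5214), and the lowest of Col4a3 (2167, replicate 2, next 2410), Hspa5 (22716, replicate 4, next 23331) and Scd1 (1024, replicate 2, next 1210). At CT16 they were the lowest library of Galnt9 (61, replicate 3, next 66) and the highest of Umod (7062, replicate 1, next 6217).

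In 37 of the 75 genes the 12 h difference of day 19 differed from that of day 18 in limma (adjusted p under 0.05), in log2 units of day 19 minus day 18. Of all 14426 genes tested, 5128 (35.5%) did. The 75 genes were chosen by their day 18 difference, which is part of the value tested, so the count is a description. Day and library series cannot be told apart here, and this test called too many genes in simulated data. The 12 h difference was lower on day 19 in chaperone genes: Sdf2l1 (-2.18), Hsph1 (-1.37), Manf (-1.21), Hspa5 (-1.12) and Hspa8 (-0.807). Also lower were Galnt9 (-1.66), Acmsd (-1.41), Hsd3b2 (-1.09), Slc22a27 (-1.07), Tfrc (-1.06), Slc4a1 (-0.732), Lrrc66 (-0.709), Kl (-0.551), Crabp2 (-0.503), Synpo2 (-0.456), Dhcr7 (-0.362), Lrp2 (-0.361), Kcnj1 (-0.359) and Clic5 (-0.276). It was higher on day 19 in Slc22a3 (2.04), Nqo1 (0.99), Dmc1 (0.957), Car9 (0.93), Tef (0.789), Fosl2 (0.726), Col4a3 (0.621), Col4a4 (0.621), Nfil3 (0.604), Ddit4 (0.596), Gstm1 (0.516), Scd1 (0.502), Aqp4 (0.452), Herpud1 (0.415), Cpt2 (0.384), Aqp3 (0.378), Hnf4a (0.346) and Smtn (0.291).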

How the results depend on the processing

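Calls between CT16 and CT4 numbered 650, and 28 with all 51 libraries. Calls beyond the change from CT0 to CT24 numbered 808, and 27 with all 51 libraries. Leaving out 1 library gave 340 to 542 and 388 to 872 calls, and 4235 to 5228 for the difference of the days (5128). Same-numbered replicates deviated together in 3 of 4 numbers (correlations 0.141, 0.00131, 0.167 and 0.152), so the numbers were not taken to pair the libraries. A replicate block gave 894 and 1098 calls, and 1894 and 1711 with only the groups of the contrast in the fit. Under the block Ifi27l2a and Umod lost their calls and Per1 gained one (-0.31, adjusted p = 0.0114 in limma). With only the groups of the contrast as well, Lrp2, Fdps and Car9 also lost theirs (adjusted p = 0.0631, 0.12 and 0.0559), and 6 of the 20 core clock genes were called, among them Per1 and Nr1d1. Of 75 named genes past the threshold, 10 passed under every alternative (Hsd3b2, Aqp2, Aqp3, Hspa5, Hspa8, Hsph1, Kcnj1, Spink8, Paqr6 and Scd1), 29 failed only with all 51 libraries, and 34 failed without 1 or more single libraries. Signs that turned belonged to genes that were not called: Csnk1d (-0.026 with quantile scaling), and, with 1 library left out, Csnk1d (-0.00826 to 0.0153), Nr1d2 (-0.0427 to 0.0259), Por (-0.0512 to 0.00666), Wee1 (-0.00243 to 0.0383), Per2 (-0.00544 to 0.0831), Nampt (-0.0406 to 0.0289), Lonrf3 (-0.066 to 0.0565) and Eif2s3y (-0.333 to 0.0648). Unknown depth limits what can be said of low genes.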

Other observations

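Of 24 interferon-stimulated genes tested, 22 had positive differences between CT16 and CT4 (median log2 difference 0.292) and 1, Ifi27l2a, was called. Between CT0 and CT24, 23 of the 24 were called higher (14.4% of all genes tested were). The summed level of the list was 13918 units in CT4 replicate 2, 19354 to 21553 in the other CT4 libraries and 17883 to 24929 at CT16, so the groups overlapped.

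All 21 oxidative phosphorylation genes had positive differences between CT16 and CT4 (0.00915 to 0.169, median 0.0616), and limma called 0 of them, with 7 at an unadjusted p under 0.05 (18.3% of all genes tested). Of 22 cytosolic ribosomal protein genes 19 were negative, within -0.0609 to 0.0549, and limma called 0, with 0 at an unadjusted p under 0.05.

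Alas1, the rate-limiting gene of haem synthesis, had 2207, 2221, 2261 and 2295 units at CT4 and 2525, 2623, 2477 and 2747 at CT16 (0.21 ± 0.036, adjusted p = 0.000946 in limma). Tfrc, the transferrin receptor gene through which cells take up iron, had 5708, 5214, 5201 and 5189 units against 7228, 7291, 6358 and 5811 (0.32 ± 0.073, adjusted p = 0.0124 in limma), a call lost without CT16 replicate 1. Ddit4, an inhibitor of the growth kinase mTOR, had 2072, 1966, 2077 and 2188 units against 1405, 1608, 1742 and 1462 (-0.42 ± 0.092, adjusted p = 0.01 in limma). In none of these 3 genes did the groups overlap.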
